A study of Homo sapiens with 54 samples.

Results

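ATF4 (activating transcription factor 4) and 9 stress-induced genes linked to it were followed by RNA sequencing in A549 human lung cancer cells. The 10 genes were taken by symbol from a table of 58870 genes: the transcription factor genes ATF4, ATF3, DDIT3, CEBPB and CEBPG, and the effector and feedback genes TRIB3, PPP1R15A, CHAC1, SESN2 and DDIT4. The cells carried stably either an insertless (empty) vector or a vector that expresses USP18, with 1 engineered population for each. They received vehicle (DMSO) or a compound known here only by its code for 48 h: CP2 at 2 or 5 µM, CP14 at 1, 2.5 or 5 µM, or CP18 at 1, 2.5 or 5 µM. All treatments were given to both lines, which makes 18 groups of 3 replicates and 54 libraries. Nothing in the labels says whether replicates came from separate cultures, so the p-values measure the spread between samples.

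ATF4 is translated more when kinases that sense misfolded protein, lack of amino acids, lack of heme or viral RNA phosphorylate the initiation factor eIF2 while bulk protein synthesis slows, a program called the integrated stress response. ATF4 and its partners then turn on genes for amino acid supply, redox balance and feedback, and with lasting stress the CHOP protein, product of DDIT3, adds genes linked to cell death. Several of the genes are also reached by other routes, such as p53 for SESN2, hypoxia and glucocorticoids for DDIT4, and inflammatory signals for CEBPB and ATF3.

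Levels are given as CPM (the usual per-library count unit, here with library sizes scaled by TMM) over the 54 libraries, which held between 16673228 and 25609062 counts with a median of 19701304. Changes are log2 fold changes from the edgeR quasi-likelihood test with Benjamini-Hochberg adjustment over all genes tested, and brackets hold 95% intervals. A gene passed the test at an adjusted p under 0.05, and was called when it also changed over 2-fold. For a result given by the adjusted p alone, a call that was lost means that the gene no longer passed. All 10 genes passed the filter on low counts in every fit.

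The label of the cells was checked first. KRT8 ran from 1264 to 6277 CPM over the 54 libraries, KRT18 from 1658 to 5175 CPM and CDH1 from 21.1 to 238 CPM, so epithelial markers were present in every library. The reductase genes AKR1C1 (100.2 to 528 CPM), AKR1B10 (370 to 2833 CPM) and NQO1 (599 to 1894 CPM), which are abundant in A549, were present in every library as well. The lines differed in these markers: means over empty-vector and USP18 libraries were 5363 and 3361 CPM for KRT8, 4397 and 3242 CPM for KRT18, 183 and 54.6 CPM for CDH1, and 4.85 and 33.3 CPM for KRT19. They were 440 and 136 CPM for AKR1C1, 2628 and 845 CPM for AKR1B10, and 1676 and 1328 CPM for NQO1. Of the alveolar and airway markers, SFTPB was at 0 in all 54 libraries, and the highest values of SFTPC, NKX2-1 and SCGB1A1 were 0.359, 0.742 and 0.0998 CPM. Markers of other lung cells were near the floor except COL1A1 (3.69 to 14.1 CPM), COL3A1 (0.149 to 3.86 CPM) and CD68 (31.6 to 99.3 CPM). The endothelial markers PECAM1, VWF and CDH5 summed to at most 0.596 CPM, DCN reached 0.120 CPM, PTPRC reached 0.349 CPM and CD3E was at 0 in all 54 libraries.

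USP18, the gene carried by the vector, had between 8.65 and 12.3 CPM in the libraries of empty-vector cells and between 953 and 2115 CPM in those of USP18 cells. In the USP18 line its mean was 1316 CPM under vehicle but 2041 CPM under 5 µM CP14, and in the empty-vector line these means were 10.8 and 9.49 CPM. The level of the transgene therefore differed between treatments in the USP18 line, and its part in the values that follow was not tested.

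Coordinates of the 10 genes are those of GENCODE 44 on GRCh38. Among the transcription factor genes, ATF4 (ENSG00000128272.14) spans chr22:39519695-39522683, ATF3 (ENSG00000162772.17) chr1:212565334-212620777 and DDIT3 (ENSG00000175197.12) chr12:57516588-57521737. CEBPB (ENSG00000172216.5) spans chr20:50190830-50192668 and CEBPG (ENSG00000153879.9) chr19:33373685-33382686. Of the effector and feedback genes, TRIB3 (ENSG00000101255.11) spans chr20:362835-397559, PPP1R15A (ENSG00000087074.8) chr19:48872212-48876059 and CHAC1 (ENSG00000128965.13) chr15:40952962-40956512. SESN2 (ENSG00000130766.5) spans chr1:28259518-28282491 and DDIT4 (ENSG00000168209.5) chr10:72273919-72276036. DDIT3 shares 355 of its 1307 exon bases with MARS1, which lies on the opposite strand and is listed as MARS, 58 with MBD6 on the opposite strand and 105 with ENSG00000285133 on its own strand. CEBPB shares 231 of 1839 exon bases with CEBPB-AS1 on the opposite strand. MARS had 302907 counts over all libraries, MBD6 61437 and ENSG00000285133 15, against 14992 for DDIT3, and CEBPB-AS1 had 343 against 157416 for CEBPB. The descriptions of the libraries name stranded kits but do not say whether strand was used in counting, so the part of MARS or MBD6 reads in the DDIT3 counts was not tested. The processed pseudogenes ATF4P1, ATF4P2, ATF4P3 and ATF4P4 had 11, 11, 50 and 39 counts over all libraries.

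The promoter sequences of the 10 genes are shown because most of the genes moved together under CP14 and the factors among them bind known DNA motifs. All 10 matched the RefSeq promoter table (GRCh38.p14), which holds windows of 250 bases before to 50 bases after each start, and 17 windows belonged to them. The motifs, searched on both strands, were the composite C/EBP-ATF element TGATGNAAT and its looser form TGATGNAAN (every match of the former is also a match of the latter), the cyclic AMP response element TGACGTCA, the C/EBP-like TTGCNNAA and the AP-1 element TGANTCA. Of 27305 genes with 35116 windows, 1.22% had TGATGNAAT in a window (0.991% of windows) and none of the 10 did, while 4.45% had TGATGNAAN (3.61% of windows), among them ATF3, CHAC1 and CEBPG. TGACGTCA (2.25% of genes, 1.85% of windows) was found for PPP1R15A, TTGCNNAA (12.7% and 10.5%) for ATF3, SESN2 and PPP1R15A, and TGANTCA (9.37% and 7.71%) for DDIT3. The stretches are written 5′ to 3′ on the strand of the gene with the match in capitals. CHAC1 (chr15:40953251-40953279, plus strand, match on the reverse strand), CEBPG (chr19:33374061-33374089, plus strand) and ATF3 (chr1:212565206-212565234, plus strand) carry TGATGNAAN. PPP1R15A (chr19:48872353-48872380, plus strand) carries TGACGTCA, DDIT3 (chr12:57520739-57520764, minus strand) TGANTCA and SESN2 (chr1:28259287-28259314, plus strand) TTGCNNAA. A match is a description of these letters and not evidence of binding.
CHAC1: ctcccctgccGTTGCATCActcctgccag
CEBPG: gcgcggcgtcTGATGCAACctgccggcaa
ATF3: aaggtcaggaTGATGGAAGgctgtcatat
PPP1R15A: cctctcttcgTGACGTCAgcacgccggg
DDIT3: gcgcgcgcaTGACTCAcccacctcct
SESN2: ctaaaccgtcTTGCAAAAgtttgcagca

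Levels of different genes were compared per length only, as CPM divided by the exon length of the gene and rescaled to the same total over all genes in every library. On that per-length scale, the highest mean levels in empty-vector cells with vehicle were those of DDIT4 (396), ATF4 (350) and CEBPB (350). CEBPG (92.5), PPP1R15A (89.2) and TRIB3 (81.1) formed a middle group, followed by SESN2 (21.7) and DDIT3 (19.6), with CHAC1 (8.66) and ATF3 (6.95) lowest. With CP14 at 5 µM in USP18 cells the highest per-length levels were those of PPP1R15A (817), CEBPB (774), ATF4 (766) and DDIT4 (728), and DDIT3 (289) was above SESN2 (148), ATF3 (135) and CHAC1 (58.9). Using the length of the longest transcript instead moved the levels of 7 of the 10 genes with vehicle in empty-vector cells by more than the spread between replicates, and it changed the order. ATF4 (327) was then above DDIT4 (308) and ATF3 (9.54) above CHAC1 (8.44) with vehicle in empty-vector cells. There TRIB3 (81.8) was also above CEBPG (70.5) and PPP1R15A (68.0), and DDIT3 (17.3) above SESN2 (15.7). With CP14 at 5 µM in USP18 cells ATF4 (705) was above PPP1R15A (613). DDIT4 (558) was then above CEBPB (550), and ATF3 (182) above SESN2 (105).

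**Figure D1:**
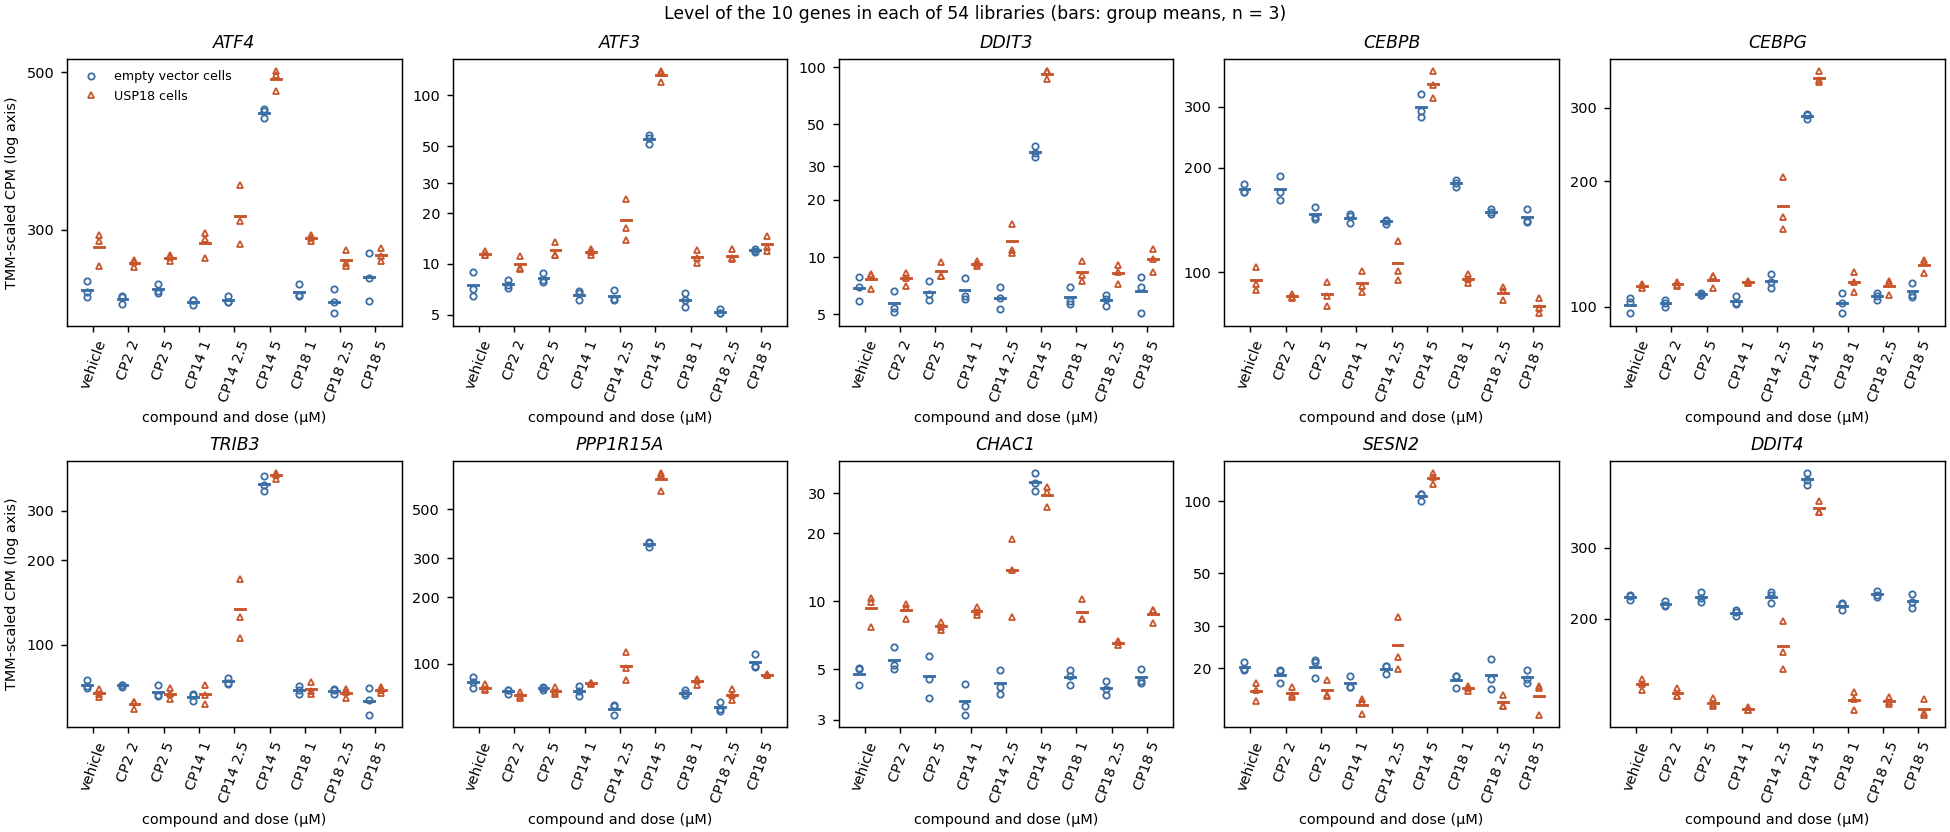
Level of each gene in every library (TMM-scaled CPM, log axis) by compound and dose in µM, with 1 point per library and bars for group means of 3 replicates. For ATF4 the lowest CP14 library at 5 µM was at 432 CPM and the highest library of the 16 other groups at 347 CPM.

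With vehicle alone the lines already differed. ATF4, whose product drives the program, had 245, 241 and 254 CPM in the 3 empty-vector libraries and 266, 290 and 295 CPM in the USP18 libraries. ATF3, which encodes a stress-induced factor that pairs with ATF4 and AP-1 proteins, had 6.46, 7.05 and 8.98 CPM against 11.2, 11.3 and 11.9 CPM, and CHAC1 had 4.26, 5.09 and 5.03 CPM against 7.72, 10.3 and 9.91 CPM. All USP18 libraries were above all empty-vector libraries for these 3 genes. CEBPB, which encodes a C/EBP factor that dimerizes with ATF4 and CHOP, went the other way, with 179, 171 and 170 CPM in empty-vector cells and 88.9, 92.7 and 104 CPM in USP18 cells. DDIT4 had 227, 229 and 222 CPM against 142, 137 and 133 CPM, and these groups did not overlap either. In the edgeR test 8 of the 10 genes passed, against 57.6% of all genes tested. USP18 cells had higher CHAC1 (log2 0.95, adjusted p = 6.2e-06), ATF3 (0.59, adjusted p = 2.0e-04), ATF4 (0.19, adjusted p = 9.3e-05) and CEBPG (0.14, adjusted p = 0.0016). They had lower CEBPB (-0.87, adjusted p = 1.0e-11), DDIT4 (-0.73, adjusted p = 3.8e-13), SESN2 (-0.35, adjusted p = 6.8e-04) and TRIB3 (-0.11, adjusted p = 0.021). DDIT3 differed by 0.15 [-0.12, 0.41] and PPP1R15A by -0.09 [-0.18, -0.00], and neither passed. The TRIB3 call was lost without empty-vector vehicle replicate 3 (-0.09), USP18 vehicle replicate 1 (-0.09) or USP18 vehicle replicate 3 (-0.11), by DESeq2, and in the fit of all 54 libraries. PPP1R15A passed without empty-vector vehicle replicate 1 (-0.13) or USP18 vehicle replicate 1 (-0.12), and the latter omission also took CHAC1 over 2-fold (1.07).

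CP14 at 5 µM raised all 10 genes in both lines. Among the transcription factor genes, ATF4 reached 432, 440 and 444 CPM in empty-vector cells and 502, 470 and 495 CPM in USP18 cells. ATF3 reached 58.0, 56.1 and 51.7 CPM and, in USP18 cells, 120, 139 and 136 CPM. DDIT3, the gene of CHOP, went from 5.90, 7.89 and 6.94 CPM with vehicle to 38.5, 35.4 and 33.8 CPM in empty-vector cells, and from 8.18, 8.06 and 6.78 CPM to 86.6, 95.02 and 95.1 CPM in USP18 cells. In all 3 genes every treated library was above every vehicle library of its line, and the treated USP18 libraries were above the treated empty-vector libraries. ATF4 rose by 0.83 [0.75, 0.91] with the empty vector and 0.79 [0.71, 0.88] in USP18 cells, which is 1.78-fold and 1.73-fold. ATF3 rose by 2.86 [2.68, 3.05] and 3.53 [3.36, 3.69], and DDIT3 by 2.38 [2.198, 2.57] and 3.60 [3.43, 3.77], so that DDIT3 was 5.22-fold and 12.1-fold above vehicle. MARS, which overlaps DDIT3 on the other strand, rose by 1.38 with the empty vector, against 0.90 with USP18.

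Of the C/EBP genes, CEBPB reached 280, 325 and 291 CPM in empty-vector cells and 318, 345 and 379 CPM in USP18 cells. These treated ranges overlap between the lines although the vehicle ranges do not. CEBPG, which encodes a small C/EBP factor without an activation domain that pairs with ATF4, went from 96.4, 103 and 105 CPM to 290, 288 and 281 CPM in empty-vector cells, and from 113, 111 and 113 CPM to 367, 349 and 345 CPM in USP18 cells. Every treated library was above every vehicle library for both genes. CEBPB rose by 0.78 [0.66, 0.91] and 1.88 [1.74, 2.01], and CEBPG rose 2.83-fold [log2 1.42, 1.58] and 3.17-fold [log2 1.59, 1.74], in empty-vector and USP18 cells.

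Among the feedback genes, PPP1R15A encodes GADD34, the subunit that directs protein phosphatase 1 to eIF2 and so restores translation. It went from 77.7, 87.3 and 82.7 CPM to 352, 357 and 337 CPM in empty-vector cells, and from 80.7, 76.6 and 76.3 CPM to 606, 731 and 717 CPM in USP18 cells. The vehicle ranges overlapped between the lines and the treated ranges did not. The rise was 2.08 [1.96, 2.199] with the empty vector and 3.14 [3.02, 3.27] in USP18 cells, or 4.22-fold and 8.84-fold. TRIB3 encodes a pseudokinase that is induced by ATF4 and CHOP and restrains ATF4. It went from 71.0, 69.98 and 74.9 CPM to 352, 397 and 369 CPM in empty-vector cells, and from 65.1, 69.6 and 66.5 CPM to 402, 390 and 409 CPM in USP18 cells. Here the treated ranges of the lines overlapped, and the rises were 2.37 [2.28, 2.46] and 2.59 [2.49, 2.68].

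CHAC1 encodes an enzyme that degrades glutathione, and its promoter stretch with the TGATGNAAN match is printed above. It reached 30.7, 36.9 and 33.2 CPM in empty-vector cells and 32.0, 26.1 and 30.4 CPM in USP18 cells. The treated ranges overlapped, while with vehicle the USP18 libraries were higher. The rise was 2.81 [2.57, 3.05] in empty-vector cells, 7.01-fold, and 1.67 [1.45, 1.89] in USP18 cells, 3.18-fold. SESN2 and DDIT4 encode inhibitors of the growth kinase complex mTORC1. SESN2 went from 21.3, 19.7 and 19.9 CPM to 107, 107 and 100.4 CPM in empty-vector cells, and from 14.6, 16.2 and 17.3 CPM to 118, 126 and 131 CPM in USP18 cells. DDIT4 reached 429, 461 and 442 CPM in empty-vector cells and 392, 369 and 369 CPM in USP18 cells, and is the only gene of the 10 for which all treated USP18 libraries were below all treated empty-vector libraries. SESN2 rose by 2.37 [2.25, 2.49] and 2.97 [2.85, 3.09], and DDIT4 by 0.97 [0.89, 1.05] and 1.46 [1.38, 1.54].

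By the edgeR test all 10 genes were higher with CP14 at 5 µM, against 31% of all genes tested with the empty vector (adjusted p of at most 3.2e-10) and 34.4% with USP18 (at most 6.9e-12). A rise over 2-fold was called for 7 of the 10 in empty-vector cells, where 6.31% of genes were so called, and for 9 of the 10 in USP18 cells, where 9.22% were. ATF4 stayed under 2-fold in both lines, and DDIT4 and CEBPB did so with the empty vector. The median change of the 10 was 2.22 and 2.23, and that of all genes was 0.01 in both lines. In the same libraries KRT8, KRT18 and CDH1 were lower: KRT8 averaged 2179 CPM against 6148 CPM with vehicle in empty-vector cells and 1326 against 3756 CPM in USP18 cells, KRT18 2203 against 5032 CPM and 1712 against 3473 CPM, and CDH1 94.2 against 219 CPM and 24.1 against 61.5 CPM. KRT19 was at 4.22 against 4.35 CPM with the empty vector, and higher with CP14 in USP18 cells (49.7 against 27.0 CPM). CD68 was higher, with 66.5 against 36.8 CPM and 97.4 against 33.3 CPM, while PTPRC was at most 0.349 CPM in any library. COL3A1 was lower, with 0.251 against 0.818 CPM and 0.282 against 3.34 CPM, as was COL1A1, with 6.18 against 12.4 CPM and 3.95 against 4.71 CPM. AKR1B10 was lower as well, with 2104 against 2737 CPM and 403 against 811 CPM. The part of these shifts in the values of the 10 genes was not tested, and in bulk RNA fewer cells of a type and less RNA per cell cannot be told apart.

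**Figure D2:**
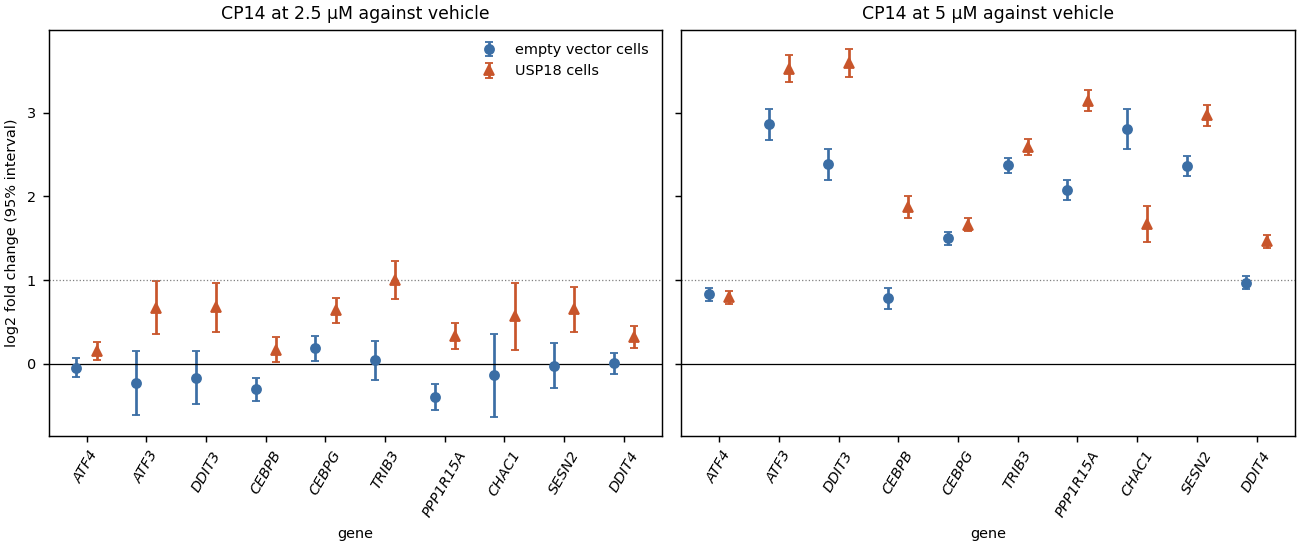
Log2 fold change against vehicle of each gene with CP14 at 2.5 µM (left) and 5 µM (right), with points for empty-vector and USP18 cells and bars for 95% intervals from the edgeR fit. At 5 µM the values ran from 0.78 (CEBPB) to 2.86 (ATF3) with the empty vector, and from 0.79 (ATF4) to 3.60 (DDIT3) with USP18.

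Whether the response to CP14 at 5 µM differed between the lines was tested as an interaction, the change in USP18 cells minus that in empty-vector cells. It passed for 9 of the 10 genes, against 27.7% of all genes tested. The response was larger in USP18 cells for DDIT3 (1.21 [0.94, 1.48], adjusted p = 5.6e-07), CEBPB (1.09 [0.91, 1.27], adjusted p = 1.2e-08) and PPP1R15A (1.07 [0.90, 1.23], adjusted p = 5.0e-09). It was also larger for ATF3 (0.66), SESN2 (0.60), DDIT4 (0.49), TRIB3 (0.22) and CEBPG (0.16). CHAC1 alone of the 10 had a smaller response in USP18 cells (-1.14 [-1.48, -0.80], adjusted p = 1.8e-05). For ATF4 itself the difference was -0.03 [-0.15, 0.08] and did not pass (adjusted p = 0.70). The TRIB3 interaction was lost without empty-vector vehicle replicate 3 (0.19, adjusted p = 0.051). The CEBPG interaction was lost without empty-vector vehicle replicate 2 (0.15) or 3 (0.14), or without empty-vector CP14 5 µM replicate 3 (0.15). Both were lost in the fit of all 54 libraries.

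At 2.5 µM CP14 the lines parted as well. TRIB3 had 73.0, 72.5 and 76.3 CPM in empty-vector cells, a range that overlaps vehicle, and 171, 125 and 105 CPM in USP18 cells. CHAC1 had 4.99, 3.90 and 4.19 CPM against 18.8, 13.7 and 8.504 CPM, and PPP1R15A had 64.6, 64.0 and 58.5 CPM against 113, 95.5 and 84.2 CPM. In USP18 cells replicate 1 of this group was the highest and replicate 3 the lowest of the 3 for all 10 genes. The median distance of the 10 genes from the group mean was 0.28, -0.07 and -0.20 on the log2 scale in replicates 1, 2 and 3, and in no library of the other groups was it beyond 0.07 in either direction. Tests of the 10 genes that use this group are therefore given with and without replicate 1, while orders of groups and correlations include it. Markers differed in this group too: CD68 averaged 50.4 CPM against 33.3 CPM with vehicle, KRT19 40.8 against 27.0 CPM and KRT8 2975 against 3756 CPM. In empty-vector cells at this dose CD68 was at 37.9 against 36.8 CPM, KRT19 at 5.50 against 4.35 CPM and KRT8 at 5293 against 6148 CPM.

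In USP18 cells 9 of the 10 genes passed the edgeR test as higher with CP14 at 2.5 µM, against 16.3% of all genes tested. TRIB3 rose by 1.01 [0.78, 1.23] (adjusted p = 1.2e-06), the only rise over 2-fold among the 10. ATF3 (0.67), DDIT3 (0.67), SESN2 (0.65), CEBPG (0.64) and CHAC1 (0.57) followed, then PPP1R15A (0.33), DDIT4 (0.32) and ATF4 (0.15), and CEBPB had 0.17 [0.02, 0.31] and did not pass (adjusted p = 0.076). Without replicate 1 of the CP14 group 7 of the 10 passed: TRIB3 (0.79), CEBPG (0.51), DDIT3 (0.49), SESN2 (0.41), ATF3 (0.40), PPP1R15A (0.22) and DDIT4 (0.20), while ATF4 (0.07) and CHAC1 (0.27) did not. The ATF4 call was also lost without CP14 replicate 2 (0.16) or USP18 vehicle replicate 1 (0.11) or 2 (0.17). The CHAC1 call was also lost without CP14 replicate 2 (0.56) or USP18 vehicle replicate 1 (0.45) or 3 (0.62). TRIB3 was under 2-fold also without USP18 vehicle replicate 1 (0.98), and just under it with RLE scaling, no filter, a replicate block or DESeq2. The CHAC1 call was lost also by DESeq2 and in the fit of only these 2 groups, and the ATF4 call in the latter. CEBPB passed without USP18 vehicle replicate 3 (0.24) or CP14 replicate 3 (0.24).

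In empty-vector cells at the same dose 2 of the 10 genes passed, against 15.1% of all genes tested in either direction, and both fell: PPP1R15A by 0.40 [-0.56, -0.24] (adjusted p = 0.0018) and CEBPB by 0.30 [-0.44, -0.17] (adjusted p = 0.0044). The interaction at 2.5 µM passed for 8 of the 10 genes, against 8% of all genes tested, each with the higher change in USP18 cells. It was 0.97 [0.64, 1.29] for TRIB3 (adjusted p = 0.0010), 0.73 [0.51, 0.95] for PPP1R15A (adjusted p = 4.8e-04), 0.47 [0.27, 0.67] for CEBPB (adjusted p = 0.0056) and 0.45 [0.24, 0.66] for CEBPG (adjusted p = 0.0093). ATF3 (0.90), DDIT3 (0.84), SESN2 (0.67) and DDIT4 (0.32) passed with adjusted p between 0.018 and 0.036, and CHAC1 (0.71 [0.07, 1.35]) and ATF4 (0.20 [0.04, 0.35]) did not pass. Without replicate 1 of the CP14 group in USP18 cells 8 of the 10 passed, with TRIB3 at 0.75, DDIT3 at 0.66, ATF3 at 0.63, PPP1R15A at 0.61, SESN2 at 0.43, CEBPB at 0.35, CEBPG at 0.32 and DDIT4 at 0.20. Without replicate 3 of that group ATF4 (0.26) and CHAC1 (0.95) passed too.

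Calls of this interaction other than those of TRIB3, PPP1R15A, CEBPB and CEBPG depended on single libraries. DDIT3 was lost without empty-vector vehicle replicate 2 (0.74), USP18 vehicle replicate 3 (0.76) or empty-vector CP14 replicate 3 (0.75). ATF3 was lost without empty-vector vehicle replicate 3 (0.74), USP18 vehicle replicate 1 (0.88) or 2 (0.88), or empty-vector CP14 replicate 2 (0.87) or 3 (0.87). SESN2 was lost without empty-vector vehicle replicate 1 (0.63) or 2 (0.69), USP18 vehicle replicate 1 (0.61) or 2 (0.68), or empty-vector CP14 replicate 1 (0.63), 2 (0.69) or 3 (0.69). The DDIT4 call was lost without empty-vector vehicle replicate 1 (0.31) or 2 (0.30), USP18 vehicle replicate 1 (0.34), 2 (0.31) or 3 (0.29), or empty-vector CP14 replicate 1 (0.32), 2 (0.29) or 3 (0.33). It was also lost without USP18 CP14 replicate 2 (0.33) and by DESeq2. The count of 8 fell to 5 without empty-vector vehicle replicate 2, USP18 vehicle replicate 1 or 2, or empty-vector CP14 replicate 2, and to 4 without empty-vector CP14 replicate 3.

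**Figure D3:**
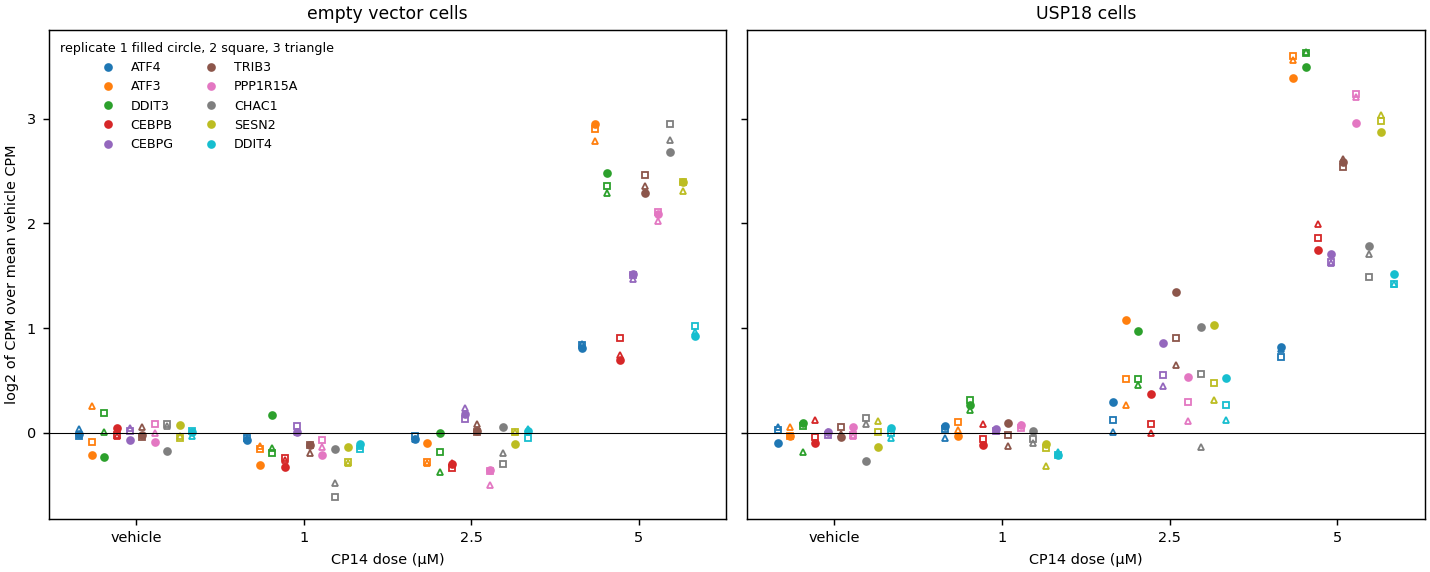
Log2 of the CPM in each library over the mean vehicle CPM of its line, by dose of CP14 (vehicle, 1, 2.5 and 5 µM), with a panel per line, a color per gene and a symbol per replicate. At 2.5 µM the TRIB3 mean was 73.9 CPM with the empty vector, against 133.8 CPM with USP18.

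The step from 2.5 to 5 µM CP14 was tested directly. In empty-vector cells 8 of the 10 genes rose over 2-fold, against 5.57% of all genes tested, from CEBPB (1.10 [0.94, 1.25]) to ATF3 (3.10 [2.80, 3.41]), and ATF4 (0.88) and DDIT4 (0.97) rose by less. In USP18 cells 9 of the 10 did, against 5.53% of all genes, from CEBPG (1.04 [0.90, 1.19]) to DDIT3 (2.94 [2.74, 3.14]), and ATF4 rose by 0.66 [0.55, 0.77]. Without USP18 CP14 2.5 µM replicate 3, CHAC1 (0.88) and CEBPG (0.96) were under 2-fold, and without replicate 1 of that group 9 of the 10 genes were called. At 1 µM CP14 the median change of the 10 genes was -0.13 in empty-vector cells. DDIT4 (-0.13, adjusted p = 0.039) and CEBPB (-0.27, adjusted p = 0.015) passed as lower in empty-vector cells, 2 of the 10 against 0.861% of all genes in either direction. In USP18 cells 1 of the 10 passed, against 15.3% of all genes in either direction: DDIT4 was lower (-0.20 [-0.27, -0.14], adjusted p = 2.0e-04). The DDIT4 call in empty-vector cells was lost without empty-vector vehicle replicate 1 (-0.12) or 2 (-0.12), or CP14 replicate 1 (-0.13), 2 (-0.11) or 3 (-0.13). The CEBPB call was lost without empty-vector vehicle replicate 1 (-0.24) or CP14 replicate 1 (-0.24). Both the DDIT4 and the CEBPB call in empty-vector cells were lost in the fit of all 54 libraries. The edgeR interaction at 1 µM passed for 0 of the 10 genes, against 5.79% of all genes, with 2 at an unadjusted p under 0.05 and 1 of the 6 with an adjusted p by DESeq2. PPP1R15A passed it without empty-vector vehicle replicate 1 (0.23), and CEBPB without USP18 vehicle replicate 3 (0.31).

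The compounds were compared with each other at matched doses in 5 pairs and both lines, 10 contrasts in all. At 5 µM CP14 was above CP18 over 2-fold for 9 of the 10 genes in empty-vector cells (5.83% of all genes) and for 9 in USP18 cells (9.09%). TRIB3 differed by 2.55 [2.42, 2.69] with the empty vector and 2.56 [2.42, 2.69] in USP18 cells, and CHAC1 by 2.86 [2.63, 3.09] and 1.77 [1.56, 1.97]. PPP1R15A differed by 1.77 [1.64, 1.91] and 2.96 [2.82, 3.10], and ATF4, under 2-fold, by 0.76 [0.65, 0.87] and 0.84 [0.73, 0.95]. In empty-vector cells DDIT4 (1.00 [0.89, 1.11]) was under 2-fold without CP14 replicate 2 (0.97) or CP18 replicate 1 (0.97) or 2 (0.99), and CEBPB (1.04 [0.91, 1.183]) without CP14 replicate 2 (0.97).

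Against CP2 at 5 µM, CP14 was higher over 2-fold for 8 of the 10 genes in empty-vector cells (5.96% of all genes) and for 9 in USP18 cells (9.38%). ATF3 differed by 2.73 [2.55, 2.91] and 3.45 [3.29, 3.61], DDIT3 by 2.44 [2.25, 2.63] and 3.45 [3.28, 3.62], and SESN2 by 2.35 and 2.95. In empty-vector cells DDIT4 (0.96) and ATF4 (0.81) differed by less than 2-fold, and CEBPB (1.01) was under it without CP2 replicate 1 (0.99) or 2 (0.98) or CP14 replicate 2 (0.94). CP18 and CP2 at 5 µM differed for 1 of the 10 genes in empty-vector cells, against 0.0257% of all genes: PPP1R15A was higher with CP18 (0.38 [0.27, 0.49], adjusted p = 0.023). That call was lost without CP2 replicate 1 (0.38), 2 (0.36) or 3 (0.39) or CP18 replicate 2 (0.32). In USP18 cells edgeR found 0 of 10 (0.00641% of all genes), with 2 at an unadjusted p under 0.05 and 1 of 10 by DESeq2. There PPP1R15A differed by 0.25 [0.14, 0.36], CEBPG by 0.13 [0.03, 0.23] and ATF4 by 0.02 [-0.08, 0.13].

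At 2.5 µM CP14 and CP18 differed in USP18 cells for all 10 genes, each higher with CP14, against 14.3% of all genes tested. CHAC1 differed by 1.08 [0.68, 1.48] (adjusted p = 3.5e-04), TRIB3 by 1.01 [0.78, 1.23] (adjusted p = 2.9e-06), SESN2 by 0.81, ATF3 by 0.72, CEBPG by 0.64, DDIT3 by 0.58, DDIT4 by 0.46, PPP1R15A by 0.45, CEBPB by 0.29 and ATF4 by 0.22. Without CP14 replicate 1 all 10 still passed, with CHAC1 (0.78) and TRIB3 (0.79) under 2-fold and lower values for ATF3 (0.45), CEBPB (0.18) and ATF4 (0.14). TRIB3 was under 2-fold also without CP18 replicate 2 (0.98), and just under it with no filter, a replicate block or DESeq2. In empty-vector cells the edgeR test of the same pair passed for 0 of the 10 genes (1.8% of all genes), with 0 at an unadjusted p under 0.05 and 0 of the 7 with an adjusted p by DESeq2. The intervals there were [-0.11, 0.11] for ATF4, [-0.09, 0.69] for ATF3, [-0.29, 0.35] for DDIT3, [-0.13, 0.34] for TRIB3 and [-0.43, 0.56] for CHAC1. At 1 µM CEBPB was lower with CP14 than with CP18 in empty-vector cells (-0.34 [-0.43, -0.25], adjusted p = 0.0028), 1 of the 10 against 0.0191% of all genes in either direction. In USP18 cells at 1 µM 0 of the 10 passed, against 0.0191% of all genes, with 1 at an unadjusted p under 0.05 and 0 of the 6 with an adjusted p by DESeq2, and the CEBPB interval was [-0.13, 0.06].

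Against vehicle, CP18 and CP2 moved few of the 10 genes, and none over 2-fold. In empty-vector cells CDH1 averaged 171 CPM with CP18 and 156 CPM with CP2 at 5 µM, against 219 CPM with vehicle. AKR1C1 averaged 410 and 402 CPM against 515 CPM. In USP18 cells CDH1 averaged 53.5 and 47.1 CPM against 61.5 CPM. The chi-square per gene between replicates was highest, at 10.4, in empty-vector cells with CP18 at 5 µM. With CP2 at 5 µM it reached 8.28 there. The part of these shifts in the values that follow was not tested. With CP18 at 5 µM ATF3, with 11.9, 11.8 and 12.3 CPM in empty-vector cells, was above its 3 vehicle libraries and rose by 0.68 [0.44, 0.92] (adjusted p = 0.0012). PPP1R15A, with 98.0, 110.3 and 96.3 CPM, rose by 0.31 [0.20, 0.42] (adjusted p = 0.0016), and CEBPB fell by 0.26 [-0.37, -0.14] (adjusted p = 0.0085), 3 of the 10 against 8.4% of all genes in either direction. CEBPB was lost without empty-vector vehicle replicate 1 (-0.23), and TRIB3 passed as lower without CP18 replicate 3 (-0.27). In USP18 cells 4 of the 10 passed, against 10.7% of all genes in either direction: CEBPB (-0.26) and DDIT4 (-0.21) as lower, and PPP1R15A (0.19) and CEBPG (0.16) as higher. The CEBPB call was lost without USP18 vehicle replicate 3 (-0.18) or CP18 replicate 3 (-0.22), and the DDIT4 call without USP18 vehicle replicate 1 (-0.18) or CP18 replicate 1 (-0.19). PPP1R15A was lost without USP18 vehicle replicate 2 (0.18) or 3 (0.18) or CP18 replicate 1 (0.20), 2 (0.20) or 3 (0.19). CEBPG was lost without USP18 vehicle replicate 1 (0.17), 2 (0.16) or 3 (0.17) or CP18 replicate 1 (0.16) or 3 (0.15). The edgeR interaction passed for 0 of the 10 (0.268% of all genes), with 3 at an unadjusted p under 0.05 and 0 of 10 by DESeq2, and the ATF3 interaction was -0.50 [-0.82, -0.17]. TRIB3 passed it without empty-vector CP18 replicate 3 (0.32).

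CP18 at 2.5 µM lowered 3 of the 10 genes in empty-vector cells, against 5.96% of all genes passing in either direction: ATF3 by -0.52 [-0.78, -0.27] (adjusted p = 0.012), PPP1R15A by -0.37 [-0.48, -0.27] (adjusted p = 1.3e-04) and CEBPB by -0.20 [-0.30, -0.11] (adjusted p = 0.0079). ATF3 thus had 5.42, 5.08 and 5.12 CPM at 2.5 µM and 11.9, 11.8 and 12.3 CPM at 5 µM, on either side of the vehicle libraries. The ATF3 call was lost without empty-vector vehicle replicate 3 (-0.37) or CP18 replicate 3 (-0.51), and the CEBPB call without empty-vector vehicle replicate 1 (-0.18) or CP18 replicate 3 (-0.19). The count was 1 without CP18 replicate 3. In USP18 cells CHAC1 (-0.51 [-0.76, -0.26], adjusted p = 0.0058) and DDIT4 (-0.14 [-0.20, -0.08], adjusted p = 0.0038) were lower, 2 of the 10 against 14.2% of all genes in either direction. With all 54 libraries fitted together DDIT4 did not pass (adjusted p = 0.078). CEBPB passed as lower without USP18 vehicle replicate 1 (-0.17). The interaction passed for 0 of the 10 by edgeR (0.197% of all genes), with 3 at an unadjusted p under 0.05 and 1 of the 6 with an adjusted p by DESeq2.

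CP18 at 1 µM gave 0 of the 10 genes in empty-vector cells by edgeR (0.368% of all genes), with 3 at an unadjusted p under 0.05 and 0 of the 6 with an adjusted p by DESeq2. In USP18 cells it gave 1, DDIT4 (-0.13 [-0.21, -0.05], adjusted p = 0.022), against 15.7% of all genes in either direction, lost without USP18 vehicle replicate 1 (-0.12) or CP18 replicate 2 (-0.10). The interaction passed for 1 of the 10, against 7.19% of all genes: PPP1R15A (0.25 [0.12, 0.38], adjusted p = 0.020), lost without USP18 vehicle replicate 2 (0.23) or 3 (0.23). Both this PPP1R15A call and the DDIT4 call were lost in the fit of all 54 libraries.

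CP2 at 5 µM lowered CEBPB in empty-vector cells (-0.22 [-0.34, -0.10], adjusted p = 0.016), 1 of the 10 against 12.1% of all genes in either direction, and the call was lost without empty-vector vehicle replicate 1 (-0.20). In USP18 cells it lowered DDIT4 (-0.16 [-0.24, -0.09], adjusted p = 0.0043), 1 of the 10 against 19% of all genes in either direction, and without CP2 replicate 1 CEBPB passed too (-0.21). The interaction gave 0 of 10 by edgeR (0.92% of all genes), with 1 at an unadjusted p under 0.05 and 0 of 10 by DESeq2. At 2 µM CP2, a dose given for no other compound, edgeR gave 0 of the 10 in empty-vector cells (1.84% of all genes), in USP18 cells (1.13%) and for the interaction (0.0569%). At an unadjusted p under 0.05 there were 1, 5 and 2 genes, and DESeq2 gave 0 of the 6, 10 and 3 genes that had an adjusted p. ATF4 passed in USP18 cells without USP18 vehicle replicate 1 (-0.12). All comparisons with vehicle in a line share the same 3 vehicle libraries, so their values for a gene are not independent of each other.

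Over the 18 groups the order of the means began with the CP14 5 µM groups for all 10 genes. For each gene the lowest of their libraries was above the highest library of the 16 other groups: 51.7 against 24.3 CPM for ATF3, 33.8 against 15.0 CPM for DDIT3, 26.1 against 18.8 CPM for CHAC1, 352 against 171 CPM for TRIB3 and 337 against 113 CPM for PPP1R15A. The same held for SESN2 (100.4 against 32.8 CPM), CEBPG (281 against 204 CPM), CEBPB (280 against 190 CPM) and DDIT4 (369 against 234 CPM). The third place went to CP14 2.5 µM in USP18 cells for ATF4, ATF3, DDIT3, CHAC1, TRIB3, SESN2 and CEBPG. For DDIT4, PPP1R15A and CEBPB the third place was held by empty-vector cells with CP18 at 2.5, 5 and 1 µM. Between neighbours in these orders most steps were within the spread of libraries: of 17 neighbouring pairs, between 12 (DDIT4) and 15 (ATF4, DDIT3, TRIB3 and SESN2) had ranges that overlapped. The highest group mean was 25.3 times the lowest for ATF3, 16.1 times for DDIT3, 11.0 times for PPP1R15A and 2.06 times for ATF4.

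Outside CP14 at 2.5 and 5 µM, all libraries of the lines were apart for CEBPB, DDIT4 and CHAC1, and for ATF4, DDIT3, SESN2 and CEBPG only the group means were. Over the 7 other groups of a line, group means of CEBPB lay between 144 and 181 CPM in empty-vector cells and between 80.0 and 95.9 CPM in USP18 cells. Means of DDIT4 lay between 207 and 230 CPM and between 119 and 137 CPM, and those of CHAC1 between 3.64 and 5.52 CPM and between 6.55 and 9.32 CPM. For TRIB3 the ranges of means, 63.1 to 72.0 CPM and 61.3 to 69.6 CPM, overlapped. As a description over the 18 group means of log2 CPM, Pearson r between DDIT4 and CEBPB was 0.967, and 0.949 over the 16 groups without CP14 at 5 µM. ATF4 and CHAC1 gave 0.961 and 0.944, and ATF4 and ATF3 0.980 and 0.905. ATF4 and CEBPB gave 0.493 over 18 groups and -0.778 over 16, and ATF4 and SESN2 0.874 and -0.202, so these values rested on the CP14 5 µM groups. The points share 2 lines, and groups of a line share its level.

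By the same measure over 18 groups and 14421 other genes, the genes most like ATF4 were LARP6 (r = 0.992), EIF1 (0.987), PLAUR (0.984), MIR100HG (0.982) and AC027031.2 (0.982). Those most like DDIT3 were PPP2R5B (0.989), MCL1 (0.989), MIR100HG (0.987), PITPNM2 (0.987) and MOSPD1 (0.987). Those most like CHAC1 were UBE2J1 (0.977), SIAH2 (0.9747), RGMB (0.974), MARS (0.971) and CARS (0.971).

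Around the 10 genes, lists of pathway genes were described by their counts and median at CP14 5 µM, beside the median of all genes of 0.01 in both lines. Of all genes 6.31% and 9.22% were called higher in empty-vector and USP18 cells, 31% and 34.4% were higher by adjusted p, and the interaction passed for 27.7% (13.3% positive and 14.4% negative). Called lower were 7.53% and 8.74% of all genes, and 32.1% and 34.3% were lower by adjusted p. Upstream, 22 genes of eIF2, its kinases, its exchange factor eIF2B, its phosphatase and the mitochondrial relay had 0 called in either line by edgeR. Their medians were 0.04 and -0.07, and by adjusted p 8 were higher and 5 lower with the empty vector, 7 higher and 9 lower with USP18. The interaction was positive for 2 and negative for 9. Downstream, 8 of 16 amino acid and one-carbon enzymes were called higher and 0 lower in empty-vector cells (median 0.97), and 6 and 0 in USP18 cells (median 0.73). BCAT1, a branched-chain aminotransferase, rose by 2.45 and 1.70, the mitochondrial folate enzyme gene ALDH1L2 by 1.99 and 1.72, and CBS, of transsulfuration, by 1.87 and 1.36. Their interactions passed (adjusted p = 1.8e-08, 0.046 and 2.0e-05), and in the whole list the interaction was positive for 1 enzyme and negative for 11 (median -0.29). At 2.5 µM CP14 it was the other way, positive for 11 and negative for 0 of the 16 (median 0.35), against 4.08% of all genes positive. Without replicate 1 of that group in USP18 cells, an alternative chosen after seeing the data, it was again positive for 11 and negative for 0 (median 0.27). With the empty vector at 2.5 µM 10 of the 16 enzymes were higher and 1 lower by adjusted p (median 0.24), against 7.06% of all genes higher. With USP18 13 were higher and 1 lower (median 0.54), against 16.3% of all genes higher. Of 11 amino acid transporters tested, 3 were called higher and 0 lower in each line (medians 0.72 and 0.67, interaction positive for 2 and negative for 5). These were the glycine transporter SLC6A9 (2.17 and 2.22), SLC1A4 (1.88 and 2.07) and SLC43A1 (1.25 and 1.12).

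Of 21 aminoacyl-tRNA synthetase and tRNA export genes, 6 were called higher in empty-vector cells (median 0.53) and 3 in USP18 cells (median 0.18), with 0 lower, and the interaction was negative for 15 and positive for 0. WARS rose by 1.57 and 0.90, GARS by 1.40 and 1.01, MARS by 1.38 and 0.90, CARS by 1.33 and 1.01, and SARS by 1.15 and 1.17. In USP18 cells GARS (0.99) and CARS (0.997) were just under 2-fold without CP14 replicate 1. Of 23 other targets of ATF4 or CHOP that were tested, 13 were called higher and 0 lower in each line (medians 1.22 and 1.31, interaction positive for 8 and negative for 5). ADM2, a peptide hormone gene, rose by 3.89 and 3.17, the secreted glycoprotein gene STC2 by 3.21 and 3.45, SLFN5 by 2.68 and 2.27, and GADD45A by 2.49 and 3.32. With CP2 at 5 µM 7 (empty vector) and 10 (USP18) of the 16 amino acid enzymes were higher by adjusted p. So were 11 and 12 of the 21 synthetase and export genes and 3 and 4 of the 23 other targets. With CP18 at 5 µM the counts were 3 and 8, 4 and 5, and 1 and 3. Of all genes 5.31% and 8.65% were higher with CP2, and 4.09% and 4.32% with CP18. Lower were 1 and 1 enzymes, 0 synthetase genes and 5 and 6 other targets with CP2. With CP18 these were 1 and 2, 0, and 2 and 2.

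Among 23 possible dimer partners of the bZIP class, 3 were called higher and 1 lower in empty-vector cells (median 0.23), and 5 and 1 in USP18 cells (median 0.55), and the interaction was positive for 12 and negative for 1. FOSL1 rose by 2.86 and 3.55, MAFF by 2.18 and 1.91 and JUN by 1.15 and 2.77, with a JUN interaction of 1.62 (adjusted p = 5.7e-11), while FOS fell by -1.81 and -1.27. Of 25 p53 targets, a list that shares CDKN1A, GDF15, GADD45A, BBC3 and TNFRSF10B with the targets of ATF4 or CHOP, 6 were called higher in empty-vector cells (median 0.53) and 10 in USP18 cells (median 0.78), with 0 lower. The interaction was positive for 10 and negative for 2. CDKN1A, the gene of the cell cycle inhibitor p21, rose by 1.31 and 2.07, GDF15 by 1.63 and 1.57, the death receptor gene TNFRSF10B by 1.36 and 1.45, and BBC3, the gene of PUMA, by 1.21 and 1.73.

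Of 22 ER chaperone and folding genes 2 were called higher and 1 lower in empty-vector cells (median 0.06), and 1 and 4 in USP18 cells (median -0.08), and the interaction was positive for 1 and negative for 18. The sensor gene ERN1 rose by 1.36 and 1.68 and the chaperone gene HSPA5 by 1.19 and 0.82, while CALR (-1.10 and -1.57), PDIA4 (-0.72 and -1.55) and CRELD2 (-0.82 and -1.21) fell. Of 18 NRF2 targets 0 were called in empty-vector cells by edgeR, where 5 were higher and 9 lower by adjusted p (median -0.15). In USP18 cells 1 was called higher and 5 lower (median -0.51), and the interaction was negative for 13 and positive for 1. HMOX1 rose by 0.54 and 1.55, and NQO1 (-0.58 and -1.15) and PGD (-0.55 and -1.10) fell. At 2.5 µM CP14 the interaction was positive for 0 and negative for 9 of the 22 ER chaperone and folding genes. It was positive for 4 and negative for 2 of the 18 NRF2 targets at that dose. For the 21 synthetase and export genes it was positive for 3 and negative for 2. Of all genes 4.08% were positive and 3.92% negative. By adjusted p 10 of the 21 synthetase and export genes were higher and 0 lower at that dose with the empty vector. With USP18 12 were higher and 4 lower. Of all genes 7.06% and 16.3% were higher, and 8.07% and 16.4% lower, in empty-vector and USP18 cells.

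Of 13 heat shock genes 3 were called lower and 0 higher in each line, with medians of -0.44 and -0.73, and 13 and 12 were lower by adjusted p, while the interaction was negative for 5 and positive for 0. HSPE1 fell by -1.05 and -1.20, and HSPA1A by -1.02 and -1.02. HSPA1A was just under 2-fold in empty-vector cells without CP14 replicate 2 (-0.998), and in USP18 cells without vehicle replicate 1 (-0.996) or CP14 replicate 1 (-0.85). CRYAB fell by -2.47 with the empty vector, from a mean of 1.59 to 0.285 CPM. In USP18 cells it fell by -1.58, and that call was lost without vehicle replicate 1 (-1.35) or 3 (-1.38) or CP14 replicate 1 (-1.93) or 2 (-0.998), and by DESeq2. With CP18 at 5 µM 11 and 10 of the 13 were higher by adjusted p (medians 0.24 and 0.31), against 4.09% and 4.32% of all genes. With CP2 at 5 µM 12 and 11 were (medians 0.20 and 0.29), against 5.31% and 8.65% of all genes. The ER chaperone and folding genes went the other way in USP18 cells, where 17 of 22 were lower by adjusted p with CP18 at 5 µM (median -0.24) and 20 with CP2 (median -0.21), against 6.4% and 10.3% of all genes. With the empty vector 3 and 6 of the 22 were lower (medians -0.06 and -0.05), against 4.3% and 6.83% of all genes. The interaction was negative for 3 of the 22 with CP18 and 6 with CP2, and positive for 0. Of all genes 0.223% and 0.654% had a negative interaction.

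**Figure D4:**
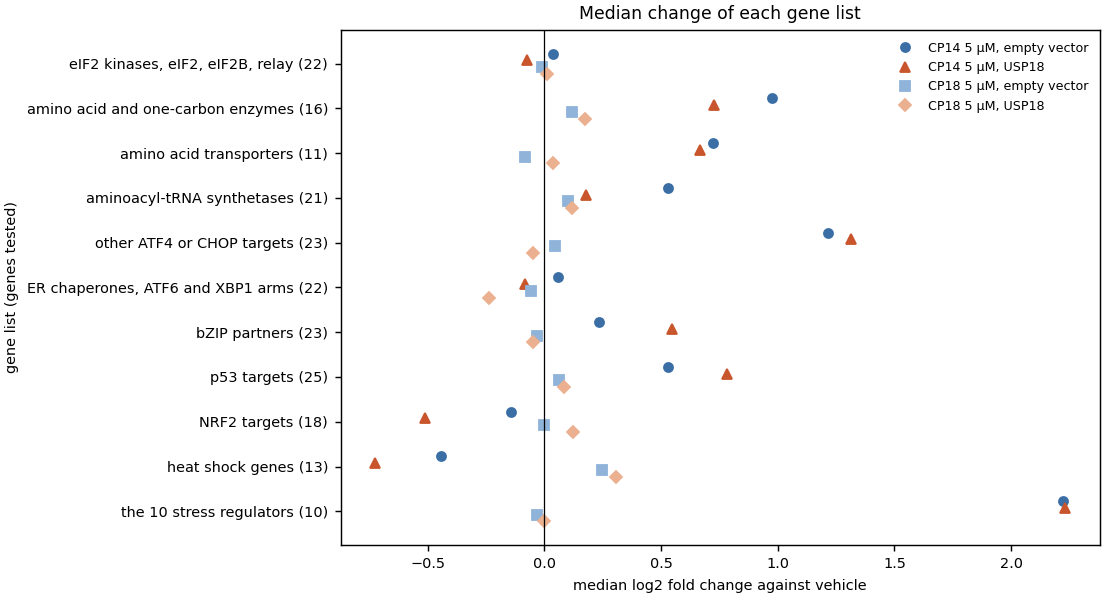
Median log2 fold change against vehicle of each gene list and of the 10 genes with CP14 or CP18 at 5 µM, with 1 point per list, compound and line and the number of genes tested in parentheses. With CP14 the list medians ran from -0.44 (heat shock genes) to 1.22 (other targets of ATF4 or CHOP) with the empty vector, beside 2.22 for the 10 genes.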

How the data were processed

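The deposited table holds RSEM expected counts per gene, which the authors had not scaled between libraries. The submitters' processing notes name cutadapt 1.18, STAR 2.7.0f and RSEM 1.3.1, and a mouse GENCODE annotation for RSEM, although the identifiers are human. The labels describe a stranded poly(A) capture kit and the methods ribosomal RNA removal. Rounded counts were fitted with edgeR 4.0.16 under R 4.3.3 (filterByExpr at a minimum count of 10 and a total of at least 15, then TMM scaling). Tests were quasi-likelihood F tests, adjusted by Benjamini-Hochberg over all genes tested. Each fit held 12 libraries, the treated and reference groups of a comparison in both lines, or 6 for vehicle alone, and replicates were unpaired. The procedure was tested on simulated data for the fit of CP14 at 5 µM against vehicle, with planted changes of at least 2-fold. Smaller changes were not simulated. The 10 genes and the lists of pathway genes were chosen with earlier results of these data known. The lists were eIF2 kinases and partners, amino acid enzymes, amino acid transporters, tRNA synthetases, other targets of ATF4 or CHOP, ER chaperones, bZIP partners, p53 targets, NRF2 targets and heat shock genes, and they share some genes. Genes named from a list are up to 3 of the largest rises and falls among those called with CP14 at 5 µM with groups that do not overlap. Alternatives were RLE scaling, no filter, a filter of 10 counts in every library, DESeq2 1.42.0, a block for replicate number, fits of 2 groups, a fit of all 54 libraries together, and omission of each library in turn. The longest transcript was tried as the length. Coordinates and exon lengths came from GENCODE 44 and promoters from RefSeq. limma was 3.58.1.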

Additional observations from a re-analysis of the deposited data

Results flagged for a closer look

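For 18 results the response to a compound differed between the lines by the interaction test of edgeR (adjusted p under 0.05). Values are the log2 change in USP18 cells minus that in empty-vector cells. With CP14 at 2.5 µM the difference was 0.97 for TRIB3, 0.90 for ATF3, 0.84 for DDIT3 and 0.73 for PPP1R15A. It was 0.67 for SESN2, 0.47 for CEBPB, 0.45 for CEBPG and 0.32 for DDIT4 at that dose. Without replicate 1 of the USP18 group at that dose TRIB3 was at 0.75, ATF3 at 0.63, DDIT3 at 0.66 and PPP1R15A at 0.61. SESN2 was then at 0.43, CEBPB at 0.35, CEBPG at 0.32 and DDIT4 at 0.20. The ATF3, DDIT3, SESN2 and DDIT4 calls were lost without some other single libraries. With CP14 at 5 µM the difference was 1.21 for DDIT3, 1.09 for CEBPB, 1.07 for PPP1R15A and 0.66 for ATF3. It was 0.60 for SESN2, 0.49 for DDIT4, 0.22 for TRIB3 and 0.16 for CEBPG, and CHAC1 was the only negative value at -1.14. With CP18 at 1 µM it was 0.25 for PPP1R15A. This PPP1R15A call was lost without USP18 vehicle replicate 2 or 3. The TRIB3 and CEBPG calls at 5 µM CP14 were lost without single empty-vector libraries. Each of these calls was also lost in the fit of all 54 libraries.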

How the results depend on the processing

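With CP14 at 5 µM against vehicle, 7 genes with the empty vector and 9 with USP18 were called under every alternative and without each library, and the interaction passed for 7 to 9. For CP14 at 2.5 µM in USP18 cells the count of genes past the test ran from 7 to 10, with 9 under a replicate block, and for its interaction from 4 to 10 without each library, with 8 under the block. Of the 147 results of a gene that passed in the main fits, none reversed. Of their 931 values under an alternative 23 lost the call, and of 990 without a library 88 did. Over all comparisons, passed or not, 44 values of the 10 genes had no adjusted p by DESeq2.

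Among the other counts of genes past the test, the larger moves are given first, and the cause was not tested. Without a filter the count was 1 for CP2 2 µM in USP18 cells, 2 for CP2 5 µM in USP18 cells, 2 for the CP14 1 µM interaction, 1 for CP18 1 µM in empty-vector cells, 2 for the CP18 2.5 µM interaction, 2 for CP18 against CP2 with the empty vector and 1 in USP18 cells. With 10 counts in every library it was 1 for the CP14 1 µM interaction. With DESeq2 it was 1 for the interactions of CP14 1 µM and CP18 2.5 µM and 1 for CP18 against CP2 in USP18 cells. In the fit of all 54 libraries it was 0 for CP14 1 µM in empty-vector cells, 0 for CP18 1 µM in USP18 cells and its interaction, and 1 for CP18 2.5 µM in USP18 cells.

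Smaller moves were from 2 to 3 for CP14 2.5 µM in empty-vector cells (no filter, all 54 libraries, fit of 2 groups), from 3 to 2 for CP18 2.5 µM in empty-vector cells (all 54 libraries) and from 2 to 3 in USP18 cells (no filter). They were also from 3 to 4 for CP18 5 µM in empty-vector cells (no filter), from 4 to 5 in USP18 cells (fit of 2 groups) and from 8 to 7 for the lines under vehicle (DESeq2, all 54 libraries). Genes called over 2-fold for CP14 against CP18 and against CP2 at 5 µM in empty-vector cells went from 9 to 8 and from 8 to 7 without a filter.

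Without each library in turn the counts ran from 0 to 1 for CP2 2 µM in USP18 cells, CP2 5 µM in empty-vector cells, the CP14 1 µM interaction, CP18 1 µM in USP18 cells and its interaction, the CP18 5 µM interaction and CP18 against CP2 in empty-vector cells. They ran from 1 to 2 for CP2 5 µM in USP18 cells, 0 to 2 for CP14 1 µM in empty-vector cells, 1 to 3 for CP18 2.5 µM in empty-vector cells and 1 to 3 for CP18 5 µM in USP18 cells. Smaller ranges were 2 to 3 for CP18 2.5 µM in USP18 cells, 2 to 4 for CP18 5 µM in empty-vector cells, 7 to 9 for the lines under vehicle, 7 to 9 for CP14 against CP18 and 7 to 8 for CP14 against CP2 at 5 µM in empty-vector cells, and 7 to 9 for CP14 5 against 2.5 µM in USP18 cells. No fit had all residual correlations of equal replicate numbers above 0.1. The genes with the fewest counts, CHAC1, ATF3 and DDIT3, had the widest intervals.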
